A study of Homo sapiens with 6 samples.

Results

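The genes described here are 42 interferon-stimulated antiviral genes, taken by symbol from a list of gene names, out of 32357 genes in a count table of 6 RNA libraries. All 42 were in the table and all 42 passed the filter on low counts, which 20144 genes passed. The study asked what knockdown of ZNF395, a zinc finger protein, does to the transcriptome of A-498 and 786-O. These are human clear cell renal cell carcinoma lines, established from kidney tumours that lack a working VHL tumour suppressor. RNA was measured in A-498 with hairpin 1 against ZNF395, A-498 with hairpin 3, A-498 with a non-targeting hairpin (the control), 786-O with hairpin 1, 786-O with hairpin 3 and 786-O with a non-targeting hairpin, with 1 library of each. Every library, the controls included, came from cells that carried a retrovirally delivered short hairpin RNA and had been selected with puromycin, so no library shows either line without a hairpin. No interferon treatment is named in the labels.

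Interferon-stimulated genes are the main output of the type I and type III interferon pathways. Interferons bind their receptors, the receptor-bound JAK kinases phosphorylate STAT proteins, and these join IRF9 in the factor ISGF3, which binds the interferon-stimulated response element (ISRE) in promoters. The proteins made from these genes destroy or mask viral RNA, tag proteins with ISG15, block virus entry or release, and in the case of the chemokines call in T cells. In epithelial tumour cells many of them are also transcribed at a low steady level without added interferon.

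The core of the ISRE was searched in the promoters to show the element that links many members. The windows, from RefSeq on GRCh38.p14, run from 250 bases before to 50 bases after an annotated transcription start, and the letters searched were GAAA, 2 free bases and GAAA, or on the other strand TTTC, 2 free bases and TTTC. Matches may overlap each other. A window was at hand for 35 of the 42 members (all but OAS2, OASL, IFIT2, MX2, USP18, IFITM2 and TRIM22), and 27 of these (77.1%) held a match, against 4.38% of 27305 genes with a window. In 15 members 1 window held at least 2 matches. The remaining 8 members with a window and no match were CMPK2, SP110, CXCL11, HERC6, SAMD9L, OAS1, XAF1 and IFI35, and no match says only that these letters are not in this window. The stretches below show the first match, in capitals, for 1 member of each role, each on the strand of its gene, and in ISG15 and BST2 2 overlapping matches run together.
OAS3, chr12:112938316-112938355 (+): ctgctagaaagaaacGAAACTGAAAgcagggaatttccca
IFIT3, chr10:89327826-89327865 (+): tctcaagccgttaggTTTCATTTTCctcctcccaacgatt
MX1, chr21:41420554-41420593 (+): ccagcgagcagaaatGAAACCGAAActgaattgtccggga
ISG15, chr1:1013369-1013408 (+): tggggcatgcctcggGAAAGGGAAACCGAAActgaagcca
RSAD2, chr2:6877617-6877656 (+): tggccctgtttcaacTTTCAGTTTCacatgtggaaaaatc
DDX60, chr4:168318816-168318855 (-): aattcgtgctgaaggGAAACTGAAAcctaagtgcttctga
PARP14, chr3:122680795-122680834 (+): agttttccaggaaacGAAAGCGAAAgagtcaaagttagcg
BST2, chr19:17405736-17405775 (-): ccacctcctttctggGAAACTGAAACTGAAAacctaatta
IFI44L, chr1:78620269-78620308 (+): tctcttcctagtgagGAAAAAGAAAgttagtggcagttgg
LGALS3BP, chr17:78979957-78979996 (-): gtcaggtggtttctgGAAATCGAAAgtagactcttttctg
CXCL10, chr4:76023694-76023733 (-): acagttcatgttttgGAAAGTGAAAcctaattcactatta

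PARP9 and DTX3L, whose proteins act as a pair, lie head to head on opposite strands, and their match is the same stretch of DNA, at chr3:122564332-122564341. The whole DTX3L window, at chr3:122564088-122564387 on the plus strand of GRCh38.p14, is shown because 1 match there serves the windows of both genes.
DTX3L: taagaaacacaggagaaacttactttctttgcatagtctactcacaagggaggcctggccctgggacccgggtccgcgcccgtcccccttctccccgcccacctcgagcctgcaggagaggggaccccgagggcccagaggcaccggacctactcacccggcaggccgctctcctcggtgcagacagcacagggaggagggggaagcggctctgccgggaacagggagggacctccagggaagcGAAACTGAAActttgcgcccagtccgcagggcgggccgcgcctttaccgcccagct

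**Figure D1:**
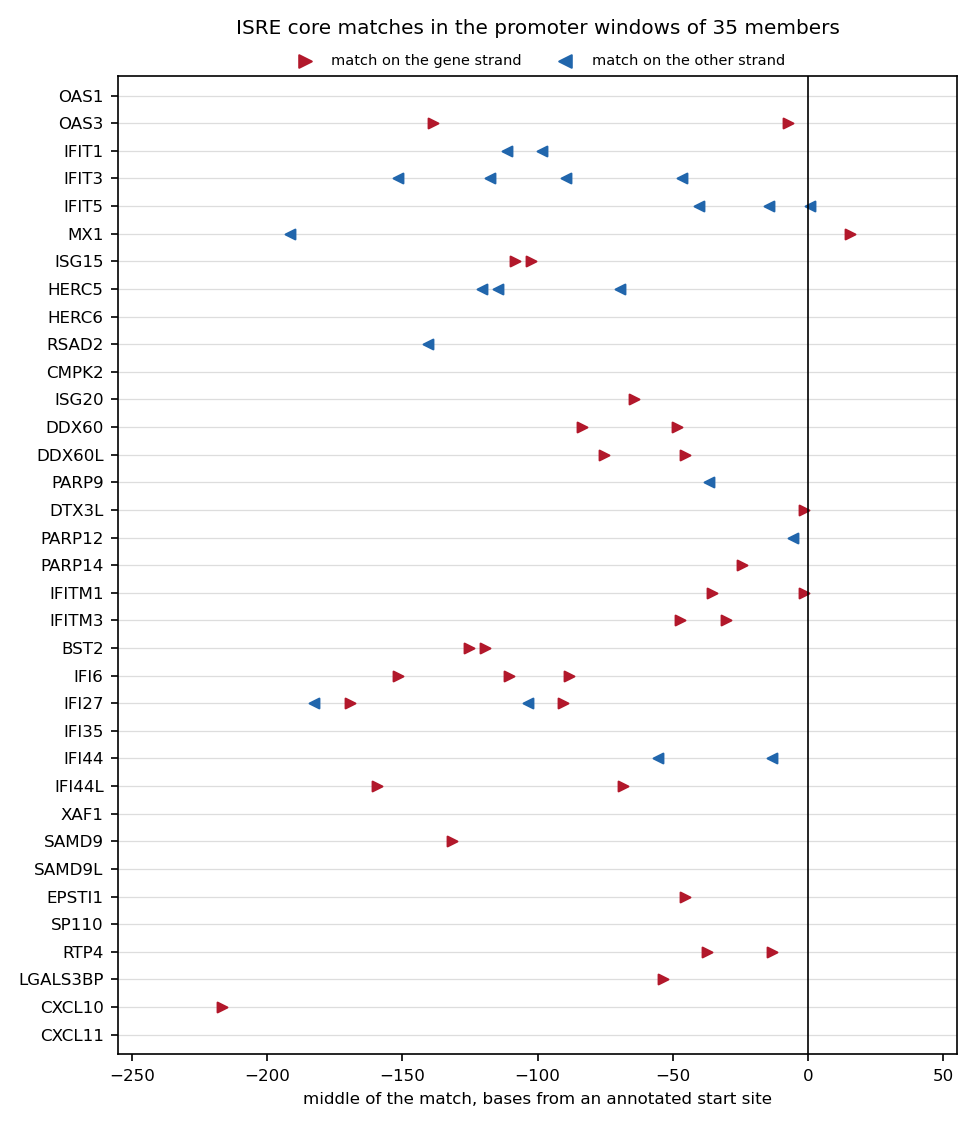
Position of each match to the ISRE core, on either strand (x axis, bases from the annotated transcription start, from 250 before to 50 after) for each member with a promoter window (y axis, 35 members), in RefSeq windows of GRCh38.p14. 27 members have at least 1 match and 8 have none; a gene with several annotated starts can show the same match more than once.

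Library totals ran from 77534125 to 99147218 counts, so that a level of 1 CPM (counts scaled to library size, with TMM factors that correct for library composition) stood for 75.0 to 99.7 counts. ZNF395 was at 14.5 and 14.3 CPM in A-498 with hairpin 1 and hairpin 3, against 67.9 CPM in the A-498 control, and at 24.7 and 13.5 CPM in 786-O with hairpin 1 and hairpin 3, against 96.3 CPM in the 786-O control. All 10 markers of renal carcinoma and tubule epithelium passed the filter on low counts, with sums of 1303 to 2053 CPM per library, but of the markers of clear cell carcinoma CA9 stayed at or under 1.68 CPM, with no count in 2 of the 786-O libraries, and NDUFA4L2 at or under 1.16 CPM. Summed immune markers, 7 of 8 in the table, lay between 1.08 and 1.51 CPM in the A-498 hairpin libraries, against 1.31 CPM in the A-498 control, and between 0.320 and 0.396 CPM in the 786-O hairpin libraries, against 0.493 CPM in the 786-O control. Endothelial markers stayed at or under 0.293 CPM. Summed fibroblast markers were at 18.7 to 41.0 CPM in the A-498 hairpin libraries, against 32.3 CPM in the A-498 control. Nearly all of this was COL1A1, at 40.8 and 18.5 CPM with hairpin 1 and hairpin 3, against 32.1 CPM in the A-498 control. In 786-O the fibroblast sum was 5.53 to 6.85 CPM in the hairpin libraries, against 7.12 CPM in the 786-O control. In bulk RNA, more cells that express a gene and more RNA per cell cannot be told apart.

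As a group the interferon-stimulated genes were higher in A-498 with either hairpin than in the A-498 control, and differed little from the control in 786-O. Their summed level was 11007 CPM in A-498 with hairpin 1 and 6961 CPM with hairpin 3, against 3294 CPM in the A-498 control. In 786-O the sum was 2141 CPM with hairpin 1 and 2188 CPM with hairpin 3, against 1855 CPM in the 786-O control. As a share of all counts the members took 1.14% and 0.728% in A-498 with hairpin 1 and hairpin 3, against 0.331% in the A-498 control, and 0.208% in both 786-O hairpin libraries, against 0.184% in the 786-O control. The smallest A-498 sum, that of its control, lay above every 786-O sum.

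**Figure D2:**
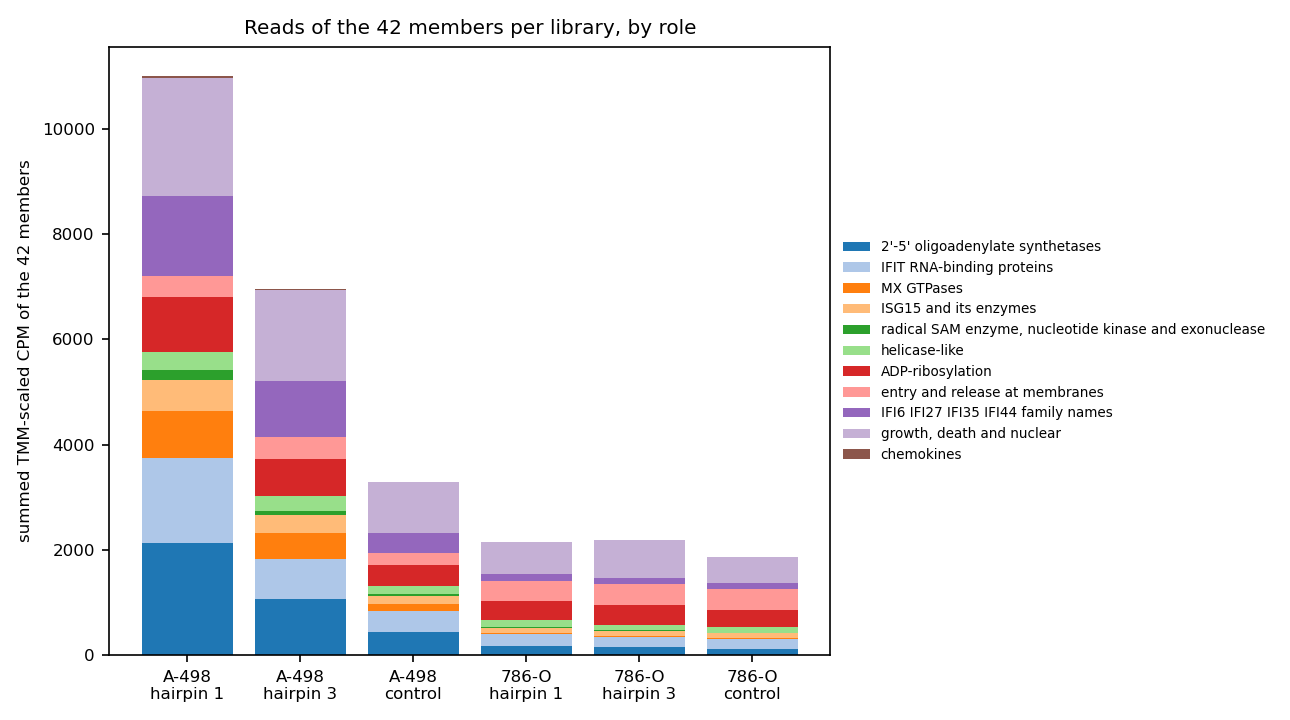
Summed level of the 42 members (y axis, TMM-scaled CPM, from 0) in each of the 6 libraries (x axis), stacked by role. The bars stand at 11007, 6961 and 3294 CPM for A-498 with hairpin 1, hairpin 3 and control, and at 2141, 2188 and 1855 CPM for 786-O with hairpin 1, hairpin 3 and control.

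With hairpin 1 in A-498, 37 of 42 members were at least 2-fold above the A-498 control, against 3.49% of all genes tested, and the median log2 ratio of the members was 1.80. With hairpin 3 in A-498, 23 of 42 were at least 2-fold above the control, against 3.75% of all genes tested, with a median log2 ratio of 1.07. Higher levels in both hairpin libraries than in the control were found for 39 members, a pattern not counted over all genes. No member was at least 2-fold lower in either, against 2.94% of all genes tested with hairpin 1 and 6.42% with hairpin 3. These ratios set 1 library against 1 and carry no test.

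The test within A-498 took its spread from the 2 hairpin libraries of each line (edgeR's quasi-likelihood test, Benjamini-Hochberg adjustment over all genes tested, 2 residual degrees of freedom). It assumes that the lone control varies like the hairpin libraries, and since no library repeats a line and construct, its p-values measure the spread between hairpins. With it 0 members passed an adjusted p of 0.05, as did 0% of all genes. All 42 fitted log2 fold changes were above 0, with a median of 1.44 and a range of 0.15 (IFITM2) to 3.40 (MX2), while the median over all genes tested was 0.00. An unadjusted p under 0.05 was reached by 34 of 42 members in the upward direction, against 0.908% of all genes. With DESeq2, 10 members rose, against 0.0751% of the genes it tested: OAS1, OAS3, MX1, ISG15, USP18, RSAD2, CMPK2, IFI6, IFI44L and EPSTI1. With the hairpin as a replicate block in edgeR, which leaves 1 residual degree of freedom, 8 rose, against 0.0447% of all genes: OAS1, OAS2, IFIT1, MX1, RSAD2, CMPK2, IFI6 and IFI44L. The block takes out the hairpin difference that the lines share. Its p-values thus measure only how that difference varies between the lines, and not the full spread between hairpins.

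**Figure D3:**
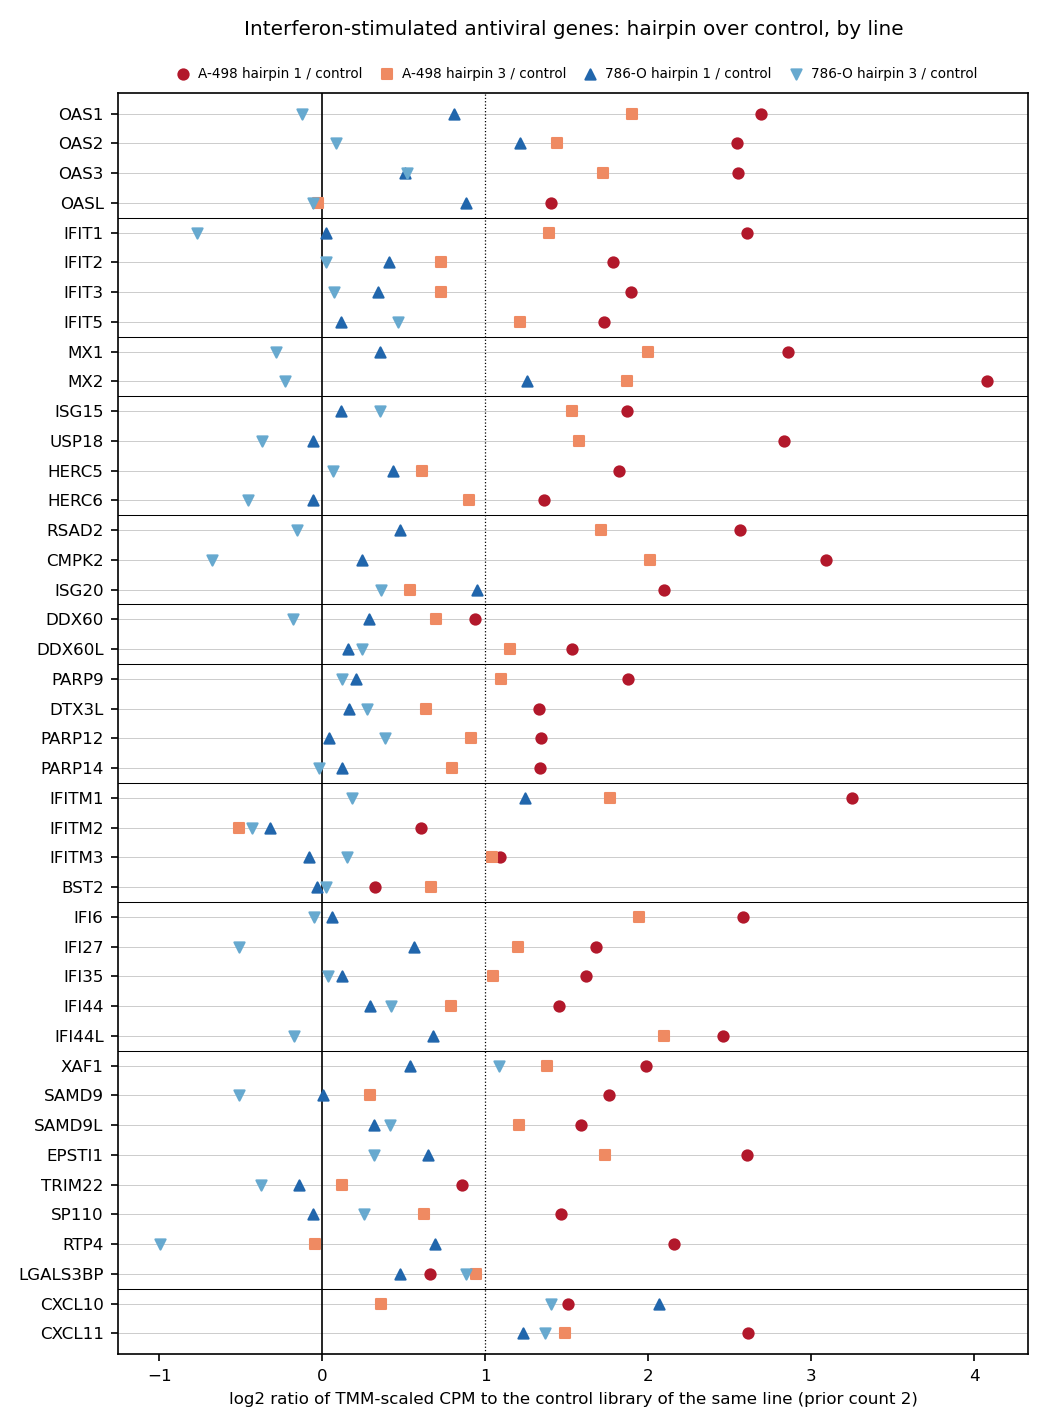
Log2 ratio of each hairpin library to the control of its line (x axis, TMM-scaled CPM with a prior count of 2, 1 library against 1) for the 42 members (y axis, by role). In A-498 all 42 points for hairpin 1 and 39 for hairpin 3 lie above 0, and in 786-O 35 points for hairpin 1 and 24 for hairpin 3 do.

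The 2'-5' oligoadenylate synthetases OAS1, OAS2 and OAS3 make the short oligoadenylates that activate RNase L, and OASL, a relative without that activity, acts on RNA sensing. OAS3 stood at 846 and 476 CPM in A-498 with hairpin 1 and hairpin 3, against 145 CPM in the A-498 control. OAS2 measured 588 and 274 CPM in A-498 with hairpin 1 and hairpin 3, against 101 CPM in the A-498 control. OAS1 was at 274 and 158 CPM in A-498 with hairpin 1 and hairpin 3, against 42.4 CPM in the A-498 control. In each of these 3 genes both hairpin libraries lay more than 2-fold above the control, with hairpin 1 the higher. OASL stood at 417 and 154 CPM in A-498 with hairpin 1 and hairpin 3, against 157 CPM in the A-498 control. OASL was thus high with hairpin 1 only, and its hairpin 3 library lay at the level of the control. In 786-O OAS3 was at 137 and 138 CPM with hairpin 1 and hairpin 3, against 96.3 CPM in the control. In 786-O OAS1 was at 9.78 and 5.12 CPM with hairpin 1 and hairpin 3, against 5.58 CPM in the control. In 786-O OAS2 was at 4.07 and 1.85 CPM with hairpin 1 and hairpin 3, against 1.75 CPM in the control. In 786-O OAS1 and OAS2 stood apart from the control with hairpin 1 and lay near it with hairpin 3. In 786-O OASL was at 21.2 and 11.0 CPM with hairpin 1 and hairpin 3, against 11.5 CPM in the control. Over the 4 genes the median log2 ratio in A-498 was 2.55 for hairpin 1 and 1.58 for hairpin 3, and in 786-O it was 0.85 for hairpin 1 and 0.01 for hairpin 3.

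IFIT proteins bind foreign RNA ends and block their translation. IFIT3 measured 566 and 252 CPM in A-498 with hairpin 1 and hairpin 3, against 152 CPM in the A-498 control. IFIT1 was at 489.6 and 211 CPM in A-498 with hairpin 1 and hairpin 3, against 80.4 CPM in the A-498 control. IFIT2 stood at 462 and 223 CPM in A-498 with hairpin 1 and hairpin 3, against 134 CPM in the A-498 control. All 3 were highest with hairpin 1 and lowest in the control. In 786-O IFIT3 was at 111 and 92.3 CPM with hairpin 1 and hairpin 3, against 87.9 CPM in the control, and IFIT2 at 47.1 and 36.0 CPM, against 35.5 CPM in the control. In 786-O IFIT1 was at 44.1 and 25.4 CPM with hairpin 1 and hairpin 3, against 43.4 CPM in the control. IFIT1 in 786-O was thus at the level of the control with hairpin 1 and under it with hairpin 3. IFIT5 had the smallest gap of the 4 between the hairpins in A-498, at 110.1 and 77.2 CPM with hairpin 1 and hairpin 3, against 33.2 CPM in the control.

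MX1 is a dynamin-like GTPase that traps viral nucleocapsids. MX1 measured 879 and 485 CPM in A-498 with hairpin 1 and hairpin 3, against 121 CPM in the A-498 control. In 786-O MX1 was at 3.34 and 2.15 CPM with hairpin 1 and hairpin 3, against 2.62 CPM in the control. The ratio to the A-498 control was 7.25 for hairpin 1, and counting error alone placed it between 7.11 and 7.39 (95% interval). For hairpin 3 the same interval ran from 3.92 to 4.08. In 786-O the ratio of MX1 lay between 1.06 and 1.54 for hairpin 1 and between 0.663 and 1.01 for hairpin 3, so that counting error alone covers a level equal to the control for hairpin 3. Its relative MX2, known for acting against HIV, was at 12.6 and 2.70 CPM in A-498 with hairpin 1 and hairpin 3, against 0.722 CPM in the A-498 control. In 786-O MX2 was at 2.85 and 0.999 CPM with hairpin 1 and hairpin 3, against 1.18 CPM in the control.

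ISG15 is a ubiquitin-like protein that HERC5 attaches to other proteins and USP18 removes; USP18 also damps the interferon receptor, and HERC6 is the ISG15 ligase of the mouse. ISG15 was at 163 and 129.6 CPM in A-498 with hairpin 1 and hairpin 3, against 44.7 CPM in the A-498 control. USP18 stood at 115 and 48.1 CPM in A-498 with hairpin 1 and hairpin 3, against 16.2 CPM in the A-498 control. HERC5 measured 196 and 84.6 CPM in A-498 with hairpin 1 and hairpin 3, against 55.5 CPM in the A-498 control. The 3 genes were above the control in both A-498 hairpin libraries, and hairpin 1 exceeded hairpin 3 in each. HERC6 was at 116 and 84.2 CPM in A-498 with hairpin 1 and hairpin 3, against 45.1 CPM in the A-498 control. In 786-O ISG15 was at 66.8 and 78.9 CPM with hairpin 1 and hairpin 3, against 61.7 CPM in the control, and HERC5 at 9.61 and 7.45 CPM, against 7.11 CPM in the control. In 786-O USP18 was at 15.3 and 12.3 CPM with hairpin 1 and hairpin 3, against 15.8 CPM in the control. In 786-O HERC6 was at 11.6 and 8.85 CPM with hairpin 1 and hairpin 3, against 12.1 CPM in the control. USP18 and HERC6 were above the control in both A-498 hairpin libraries and under it in both of 786-O, where for hairpin 1 counting error alone covers a level equal to the control. USP18 has a close copy in the genome, so its counts are uncertain.

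RSAD2 (viperin) makes a chain-terminating nucleotide, CMPK2, its neighbour in the genome, is a mitochondrial nucleotide kinase, and ISG20 is an exonuclease. RSAD2 stood at 83.7 and 46.5 CPM in A-498 with hairpin 1 and hairpin 3, against 14.2 CPM in the A-498 control. CMPK2 measured 49.6 and 23.5 CPM in A-498 with hairpin 1 and hairpin 3, against 5.81 CPM in the A-498 control. These 2 had log2 fold changes of 2.20 (SE 0.51) and 2.65 (SE 0.65) in A-498. In 786-O RSAD2 was at 6.42 and 4.14 CPM with hairpin 1 and hairpin 3, against 4.62 CPM in the control. In 786-O CMPK2 was at 1.38 and 0.720 CPM with hairpin 1 and hairpin 3, against 1.16 CPM in the control. In 786-O the hairpin libraries of both genes lay on either side of the control. ISG20 was at 42.4 and 14.4 CPM in A-498 with hairpin 1 and hairpin 3, against 9.93 CPM in the A-498 control.

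DDX60 and DDX60L are helicase-like proteins linked to the sensing of viral RNA. DDX60 was at 180.2 and 153 CPM in A-498 with hairpin 1 and hairpin 3, against 94.2 CPM in the A-498 control. DDX60L stood at 171 and 131 CPM in A-498 with hairpin 1 and hairpin 3, against 59.0 CPM in the A-498 control. DDX60 stayed under 2-fold with either hairpin, and DDX60L passed it with both. In 786-O DDX60 was at 93.3 and 67.5 CPM with hairpin 1 and hairpin 3, against 76.4 CPM in the control, and DDX60L at 41.6 and 44.1 CPM, against 37.3 CPM in the control. PARP14 is a large mono-ADP-ribosyltransferase, and the ubiquitin ligase DTX3L works with PARP9. PARP14 measured 457 and 315 CPM in A-498 with hairpin 1 and hairpin 3, against 181 CPM in the A-498 control. DTX3L was at 249 and 154 CPM in A-498 with hairpin 1 and hairpin 3, against 99.1 CPM in the A-498 control. Both were above the control with each hairpin, and only hairpin 1 took them past 2-fold. In 786-O PARP14 was at 178 and 161 CPM with hairpin 1 and hairpin 3, against 164 CPM in the control, and DTX3L at 88.9 and 95.7 CPM, against 79.2 CPM in the control. PARP9, which shares its promoter with DTX3L, was at 177 and 103 CPM in A-498 with hairpin 1 and hairpin 3, against 48.2 CPM in the A-498 control. PARP12 had log2 ratios of 1.34 and 0.91 with hairpin 1 and hairpin 3 in A-498.

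IFITM proteins stop viruses from fusing with cell membranes, and BST2 (tetherin) holds budding virions at the surface. IFITM3 stood at 224 and 218 CPM in A-498 with hairpin 1 and hairpin 3, against 106 CPM in the A-498 control. BST2 measured 153 and 194 CPM in A-498 with hairpin 1 and hairpin 3, against 122 CPM in the A-498 control. IFITM3 was about equal with either hairpin and above the control, and BST2 was higher with hairpin 3 than with hairpin 1, which in A-498 held for 1 other member, LGALS3BP. In 786-O IFITM3 was at 90.7 and 107 CPM with hairpin 1 and hairpin 3, against 95.8 CPM in the control. In 786-O BST2 was at 278 and 289 CPM with hairpin 1 and hairpin 3, against 285 CPM in the control. BST2 was higher in each 786-O library than in any A-498 library. IFITM2 had 0.911 and 0.409 CPM in A-498 with hairpin 1 and hairpin 3, against 0.592 CPM in the A-498 control, and 13.5 and 12.5 CPM in 786-O with hairpin 1 and hairpin 3, against 16.9 CPM in the 786-O control. IFITM1 had 11.7 and 4.18 CPM in A-498 with hairpin 1 and hairpin 3, against 1.21 CPM in the A-498 control, and at most 0.332 CPM in 786-O. IFITM1, IFITM2 and IFITM3 are related genes. How reads were shared among them is not stated in the sources used here, so their separate levels are uncertain.

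IFI6, IFI27, IFI35, IFI44 and IFI44L carry the name of interferon-induced protein. IFI6, which limits the membrane compartments that flaviviruses build, had the smallest unadjusted p of all members in A-498. IFI44L was at 601 and 469.6 CPM in A-498 with hairpin 1 and hairpin 3, against 109.6 CPM in the A-498 control. IFI44 stood at 380.4 and 240.3 CPM in A-498 with hairpin 1 and hairpin 3, against 139 CPM in the A-498 control. IFI6 measured 243 and 156 CPM in A-498 with hairpin 1 and hairpin 3, against 40.6 CPM in the A-498 control. All were above the control with each hairpin, and the log2 fold change of IFI6 was 2.30 (SE 0.38, adjusted p = 1 by edgeR). IFI27 was at 170.5 and 122 CPM in A-498 with hairpin 1 and hairpin 3, against 53.2 CPM in the A-498 control. In 786-O IFI6 was at 25.0 and 23.2 CPM with hairpin 1 and hairpin 3, against 24.005 CPM in the control, and IFI44 at 60.6 and 66.2 CPM, against 49.4 CPM in the control. IFI6 was thus level in 786-O, and IFI44 was somewhat above the control with each hairpin. In 786-O IFI44L was at 21.1 and 11.7 CPM with hairpin 1 and hairpin 3, against 13.2 CPM in the control. In 786-O IFI27 was at 5.12 and 2.43 CPM with hairpin 1 and hairpin 3, against 3.47 CPM in the control. The 786-O levels of IFI44L and IFI27 were above the control with hairpin 1 and under it with hairpin 3. IFI35, which binds NMI in the cytoplasm, was at 123 and 82.7 CPM in A-498 with hairpin 1 and hairpin 3, against 40.0 CPM in the A-498 control.

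Among the members linked to growth, cell death and nuclear bodies, LGALS3BP is a secreted galectin-binding glycoprotein, SAMD9 and SAMD9L restrict poxviruses and cell growth, and XAF1 opposes the apoptosis inhibitor XIAP. LGALS3BP stood at 715 and 869.9 CPM in A-498 with hairpin 1 and hairpin 3, against 453 CPM in the A-498 control. In 786-O LGALS3BP was at 371 and 493 CPM with hairpin 1 and hairpin 3, against 267 CPM in the control. In both lines LGALS3BP was highest with hairpin 3 and lowest in the control. XAF1 measured 292 and 191 CPM in A-498 with hairpin 1 and hairpin 3, against 73.8 CPM in the A-498 control. In 786-O XAF1 was at 26.4 and 38.6 CPM with hairpin 1 and hairpin 3, against 18.2 CPM in the control. XAF1 was above the control in all 4 hairpin libraries. SAMD9 was at 510.2 and 184 CPM in A-498 with hairpin 1 and hairpin 3, against 151 CPM in the A-498 control. In 786-O SAMD9 was at 59.3 and 41.5 CPM with hairpin 1 and hairpin 3, against 59.2 CPM in the control. SAMD9 was well above the control only with hairpin 1 in A-498, and under it with hairpin 3 in 786-O. EPSTI1 stood at 68.7 and 37.5 CPM in A-498 with hairpin 1 and hairpin 3, against 11.3 CPM in the A-498 control. In 786-O EPSTI1 was at 1.48 and 1.17 CPM with hairpin 1 and hairpin 3, against 0.936 CPM in the control. EPSTI1 was above the control in all 4 hairpin libraries. TRIM22 measured 252 and 151 CPM in A-498 with hairpin 1 and hairpin 3, against 139 CPM in the A-498 control. In 786-O TRIM22 was at 72.2 and 61.5 CPM with hairpin 1 and hairpin 3, against 79.7 CPM in the control. TRIM22, a ubiquitin ligase that restricts HIV, was above the control in both A-498 hairpin libraries and under it in both of 786-O. SAMD9L and SP110 had log2 ratios of 1.59 and 1.47 with hairpin 1 and of 1.21 and 0.62 with hairpin 3 in A-498. In 786-O SP110 was at 18.0 and 22.4 CPM with hairpin 1 and hairpin 3, against 18.8 CPM in the control. RTP4, a chaperone of membrane receptors, was at 1.82 and 0.378 CPM in A-498 with hairpin 1 and hairpin 3, against 0.391 CPM in the A-498 control. SP110 and RTP4 each had 1 of the 786-O hairpin libraries above the control and 1 under it. In 786-O RTP4 was at 1.34 and 0.400 CPM with hairpin 1 and hairpin 3, against 0.822 CPM in the control.

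CXCL10 and CXCL11 are secreted ligands of CXCR3, the receptor that draws T cells, and they had the largest fitted log2 fold changes of the members in 786-O, 1.98 for CXCL10 and 1.40 for CXCL11. CXCL11 was at 26.6 and 12.2 CPM in A-498 with hairpin 1 and hairpin 3, against 4.33 CPM in the A-498 control. In 786-O CXCL11 was at 0.447 and 0.493 CPM with hairpin 1 and hairpin 3, against 0.177 CPM in the control. CXCL11 was thus far lower in every 786-O library than in any A-498 library. CXCL10 stood at 15.3 and 6.88 CPM in A-498 with hairpin 1 and hairpin 3, against 5.36 CPM in the A-498 control. In 786-O CXCL10 was at 0.498 and 0.306 CPM with hairpin 1 and hairpin 3, against 0.101 CPM in the control. Both chemokines were above the control in all 4 hairpin libraries, but in 786-O CXCL10 rested on 39 and 23 counts with hairpin 1 and hairpin 3, against 8 counts in the control, and CXCL11 on 35 and 37 counts, against 14 in the control. By counting error alone the 786-O ratio of CXCL10 lay between 2.27 and 12.2 for hairpin 1 and between 1.31 and 7.83 for hairpin 3 (95% intervals).

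**Figure D4:**
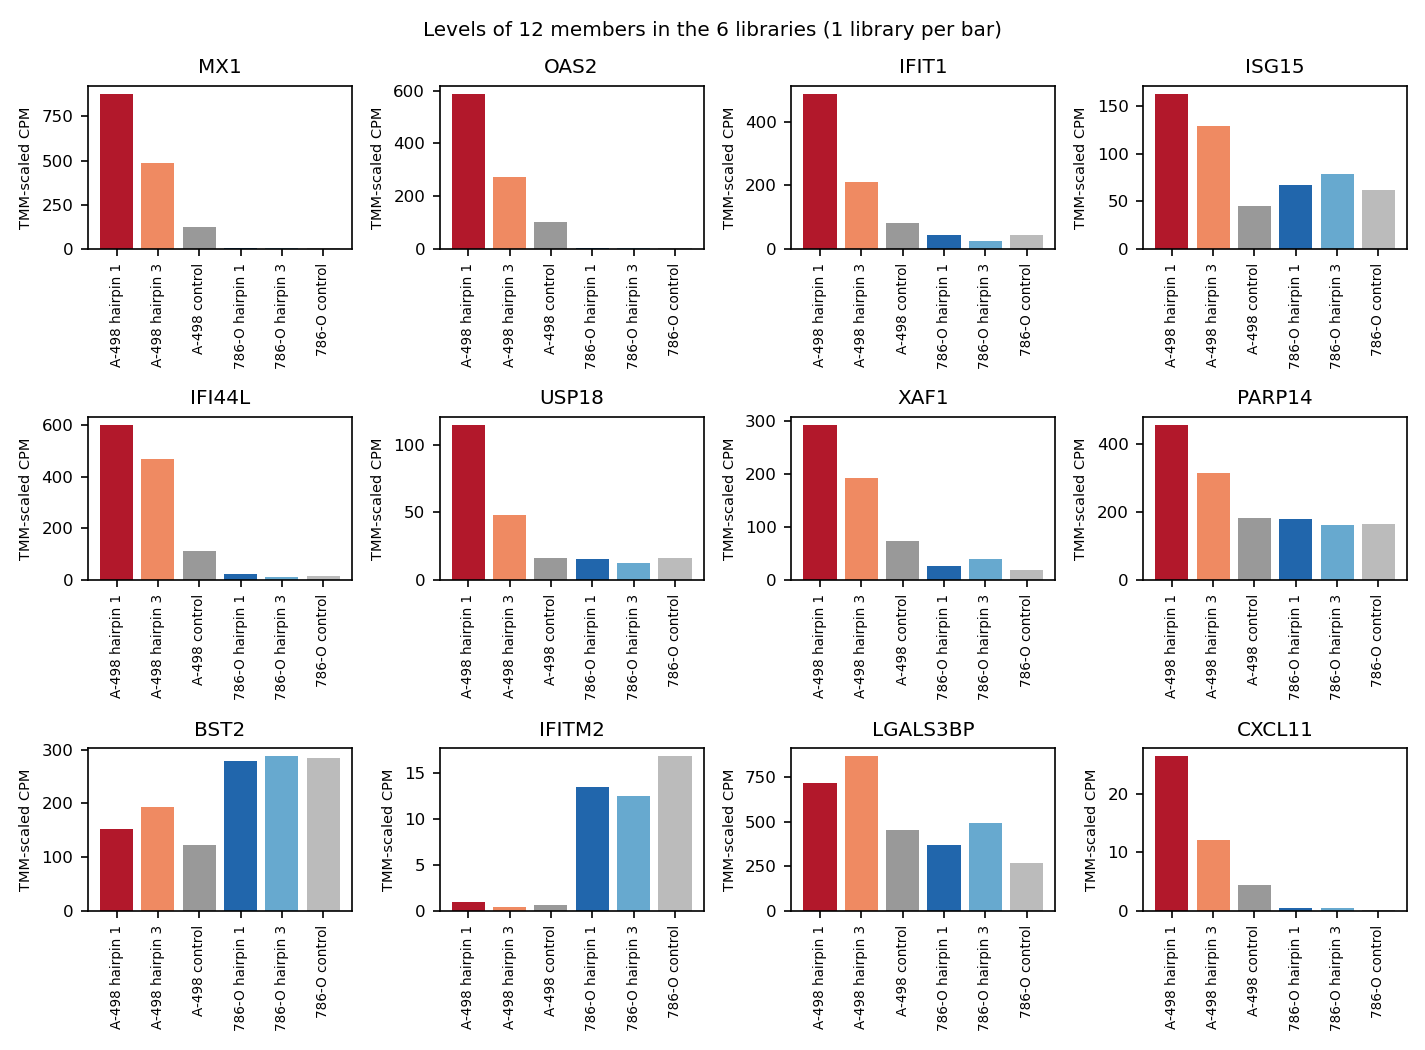
Levels of 12 members (1 panel each, y axis in TMM-scaled CPM from 0, own scale) in the 6 libraries (x axis, A-498 left and 786-O right, each with hairpin 1, hairpin 3 and control). MX1 stands at 879, 485 and 121 CPM in A-498 and at 3.34, 2.15 and 2.62 CPM in 786-O, in that order of constructs.

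In 786-O the ratios of most members were small, mostly above the control with hairpin 1 and mixed in direction with hairpin 3. With hairpin 1, 5 of 42 members were at least 2-fold above the 786-O control (OAS2, MX2, IFITM1, CXCL10 and CXCL11), against 2.6% of all genes tested. With this hairpin 35 members were above the control, against 49.5% of all genes tested, with a median log2 ratio of 0.31. With hairpin 3, 3 of 42 were at least 2-fold above the control (XAF1, CXCL10 and CXCL11), against 3.86% of all genes tested. With this hairpin 24 members were above the control, against 48.8% of all genes tested, with a median log2 ratio of 0.05. In both 786-O hairpin libraries 21 members were higher than in the control, 4 were lower and 17 had 1 library on each side. These patterns were not counted over all genes. edgeR's test called 0 of 42 members, as it called 0% of all genes, with a median log2 fold change of 0.22, a range of -0.37 to 1.98 and an unadjusted p under 0.05 for CXCL10 alone, against 1.66% of all genes. The count stayed at 0 with DESeq2, which called 0.093% of the genes it tested, and with the hairpin as a replicate block, which called 0.00496% of all genes.

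The log2 fold change in A-498 exceeded that in 786-O for 41 of 42 members, against 48.3% of all genes tested. The median difference over the members was 1.20. CXCL10 was the exception, at -0.93, and CMPK2 had the largest excess, at 2.80. Larger ratios in A-498 than in 786-O with both hairpins were found for 40 members, and this was not counted over all genes. In the test of the difference itself, edgeR called 0 of 42 members at an adjusted p of 0.05, as it called 0% of all genes, and 18 of 42 had an unadjusted p under 0.05, against 0.789% of all genes. DESeq2, limma-voom and the fit with the replicate block also called 0 members, as they called 0% of all genes. Across the 42 members, the hairpin 1 ratios in A-498 and 786-O had a Pearson r of 0.45 and a Spearman rho of 0.49, and the hairpin 3 ratios a Pearson r of 0.07 and a Spearman rho of 0.02. These describe members that share libraries and, in part, low counts, and are no test.

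The hairpins were also compared with the control over both lines, in a model in which the lines serve as replicates of a construct (2 residual degrees of freedom). Hairpin 1 against control called 0 of 42 members, against 0.149% of all genes in either direction, although all 42 log2 fold changes were above 0 (median 1.12) and 33 members had an unadjusted p under 0.05, against 10.5% of all genes. The count moved with the processing and with single libraries. It was 24 with no filter on low counts, against 1.48% of all genes in either direction, and 15 with DESeq2, against 3.03% of the genes that DESeq2 tested. It was 7 without A-498 hairpin 3 (2.47% of all genes), 12 without 786-O hairpin 3 (3.04%) and 15 without the 786-O control (0.179%), and 0 without each of the other 3 libraries. Those 3 fits called 0.111% of all genes without A-498 hairpin 1, 0.0331% without the A-498 control and 0% without 786-O hairpin 1. In the fit without the 786-O control A-498 is the only line with a control, so its calls rest on that control alone. Hairpin 3 against control called 1 of 42 members upward (2.38%), a share no larger than the 2.55% of all genes called upward. The member called was LGALS3BP, which rose by 0.91 (SE 0.126, adjusted p = 0.0159 by edgeR) and whose values stand above. The median over the members was 0.58, and 37 of 42 were above 0. LGALS3BP kept its call without any single hairpin library and lost it without the A-498 control, when the count was 0, and without the 786-O control. The share of all genes called in either direction was 6.71% with all libraries. The member count was 10 without A-498 hairpin 1 (9.89% of all genes), 3 without A-498 hairpin 3 (10.5%), 3 without 786-O hairpin 1 (4.43%) and 4 without 786-O hairpin 3 (11.7%). It was 14 without the 786-O control, against 1.11% of all genes, a fit in which A-498 is the only line with a control.

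Hairpin 3 gave lower levels of most members than hairpin 1. In A-498 40 of 42 members were lower with hairpin 3 than with hairpin 1. The other 2 were higher, against 48.6% of all genes tested. At least 2-fold lower were 16 members, against 8.18% of all genes tested, and the median log2 ratio of the members was -0.81. In 786-O 28 of 42 were lower with hairpin 3 and 14 were higher, against 48.8% of all genes tested that were higher. At least 2-fold lower were 5 members, against 8.42% of all genes tested, and the median log2 ratio of the members was -0.29. Over both lines edgeR called 2 of 42 members lower (4.76%), a share under the 5.4% of all genes called lower. OASL was at 154 CPM with hairpin 3 and 417 CPM with hairpin 1 in A-498, and at 11.0 CPM with hairpin 3 and 21.2 CPM with hairpin 1 in 786-O. It fell by 1.20 on the log2 scale (SE 0.16, adjusted p = 0.0125 by edgeR), and kept its call without any single library. RTP4 was at 0.378 CPM with hairpin 3 and 1.82 CPM with hairpin 1 in A-498, and at 0.400 CPM with hairpin 3 and 1.34 CPM with hairpin 1 in 786-O. It fell by 2.03 (SE 0.40, adjusted p = 0.0306 by edgeR), and its call was lost without A-498 hairpin 1 and without 786-O hairpin 1. The member count was 1 without A-498 hairpin 1 (3.72% of all genes in either direction), 12 without the A-498 control (6.04%), 6 without 786-O hairpin 3 (16.5%) and 12 without the 786-O control (5.72%), beside 9.48% of all genes with every library. Residual ZNF395 was alike with both hairpins in A-498, at 14.3 CPM with hairpin 3 and 14.5 CPM with hairpin 1, and lower with hairpin 3 in 786-O, at 13.5 CPM with hairpin 3 and 24.7 CPM with hairpin 1. Its part in these differences was not tested.

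The basal level of many members was higher in A-498 than in 786-O. Between the controls, 37 of 42 members had a log2 fold change above 0 (A-498 over 786-O), with a median of 1.08, while the median over all genes tested was 0.03. edgeR called 12 of 42 members higher in the A-498 control, against 6.39% of all genes, and 1 lower, against 3.39% of all genes. This test sets 1 control library against 1 and takes its spread from the hairpin libraries. MX1 was 121 CPM in the A-498 control and 2.62 CPM in the 786-O control, and its log2 fold change was 5.53 (SE 0.63; adjusted p = 0.00781 by edgeR). OAS2, at 101 CPM in the A-498 control and 1.75 CPM in the 786-O control, had the largest, 5.85 (adjusted p = 0.0149, SE 0.86). CXCL10 and CXCL11 were higher by 5.71 (adjusted p = 0.0174) and 4.60 (adjusted p = 0.0193) on the log2 scale, on 8 and 14 counts in the 786-O control. The other 8 called higher were IFI27 (3.94), OASL (3.78), EPSTI1 (3.59), IFI44L (3.05), HERC5 (2.96), OAS1 (2.92), XAF1 (2.02) and HERC6 (1.89), with log2 fold changes in parentheses. EPSTI1 was at 11.3 CPM in the A-498 control and 0.936 CPM in the 786-O control.

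IFITM2 was the single member called lower in the A-498 control, at 0.592 CPM against 16.9 CPM in the 786-O control (log2 -4.83, adjusted p = 0.0135, SE 0.68). By the 2-fold rule 3 members were lower in the A-498 control, against 13.4% of all genes tested: IFITM2, and BST2 and RTP4, which did not pass edgeR's test. At least 2-fold higher levels were found for 21 of 42 members in the A-498 control, against 21.9% of all genes tested. With hairpin 1 in both lines 37 of 42 were at least 2-fold higher in A-498, against 22.1% of all genes tested, and with hairpin 3 it was 33 of 42, against 24% of all genes tested. The lowest A-498 library exceeded every 786-O library for 34 members, and the exceptions were IFIT5, MX2, ISG15, IFITM2, IFITM3, BST2, RTP4 and LGALS3BP. The same share was not worked out over all genes, so how unusual 34 of 42 is cannot be read from it. Between the controls 3 alternatives called clearly more members: 22 with DESeq2, against 15% of the genes it tested, 26 with the replicate block, against 29.1% of all genes, and 21 without A-498 hairpin 3, against 12.3% of all genes.

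**Figure D5:**
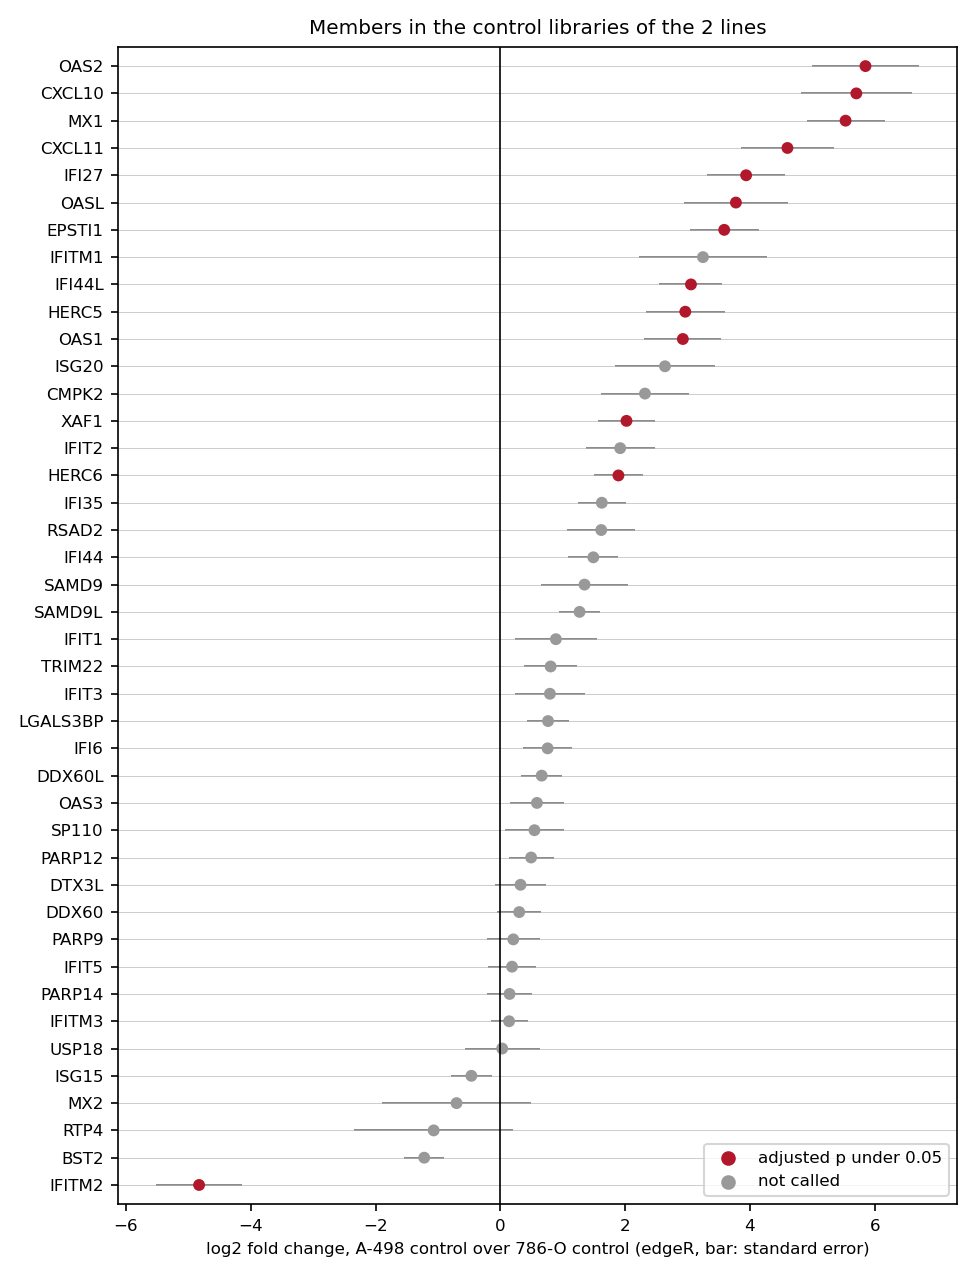
Log2 fold change of the A-498 control over the 786-O control for the 42 members (x axis, edgeR, bars are ± 1 SE from the 4-means model), with members called at an adjusted p under 0.05 marked. 12 members are called above 0 and IFITM2 below it.

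Receptors and kinases upstream of the members had smaller ratios than the members did. Of 9 tested interferon receptor and JAK genes, 0 passed the test within either line, and their median log2 ratio in A-498 was 0.15 for hairpin 1 and 0.16 for hairpin 3. JAK1, TYK2, IFNAR1 and IFNGR2 had the most CPM of the list, a scale not corrected for gene length, and JAK1, a receptor-bound kinase, was at 367 and 388 CPM in A-498 with hairpin 1 and hairpin 3, against 533 CPM in the A-498 control. STAT2, a subunit of ISGF3, was at 183 and 137 CPM in A-498 with hairpin 1 and hairpin 3, against 91.7 CPM in the A-498 control, and IRF1 at 92.8 and 83.9 CPM, against 46.2 CPM in the control. IRF3, which drives interferon transcription, was at 42.9 and 41.6 CPM, against 42.1 CPM in the control, and so nearly level across the 3 libraries. IRF7 measured 65.1 and 66.1 CPM in A-498 with hairpin 1 and hairpin 3, against 12.9 CPM in the A-498 control. In 786-O IRF7 was at 4.19 and 4.37 CPM with hairpin 1 and hairpin 3, against 3.66 CPM in the control. IRF7, the interferon-induced amplifier of the pathway, was picked out after its values were seen, and its log2 fold change in A-498 was 2.35 (SE 0.29, adjusted p = 1 by edgeR).

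Of 11 tested RNA and DNA sensors and their adaptors, 0 passed within either line, and their median log2 ratios in A-498 were 0.85 for hairpin 1 and 0.45 for hairpin 3. ADAR, the RNA-editing enzyme, was at 906 and 604 CPM in A-498 with hairpin 1 and hairpin 3, against 529.6 CPM in the A-498 control. EIF2AK2, the kinase that stops translation on double-stranded RNA, was at 381 and 302 CPM, against 154 CPM in the control, and IFI16, a DNA sensor, at 424 and 289.5 CPM, against 184 CPM in the control. All 3 were above the control with each hairpin. DDX58 was at 486 and 216 CPM in A-498 with hairpin 1 and hairpin 3, against 128 CPM in the A-498 control. In 786-O DDX58 was at 36.9 and 18.6 CPM with hairpin 1 and hairpin 3, against 22.2 CPM in the control. DDX58 encodes RIG-I, the sensor of viral RNA ends, and was above the control with each hairpin in A-498. Of the 8 interferon genes listed with counts, 4 passed the filter on low counts. IFNB1, the gene of interferon beta, had 71 and 73 counts in A-498 with hairpin 1 and hairpin 3, against 10 counts in the A-498 control, and 2 and 2 counts in 786-O with hairpin 1 and hairpin 3, against 1 count in the 786-O control. It was called higher with hairpin 3 over both lines (adjusted p = 0.0307 by edgeR), on these low counts, and not within either line. IFNL1, a type III interferon, was at 0.325 and 0.705 CPM in A-498 with hairpin 1 and hairpin 3, against 0.0903 CPM in the A-498 control, and had no count in 786-O. IFNE stayed at or under 1.40 CPM in all libraries, and IFNL3 at or under 0.143 CPM.

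Feedback regulators, antigen presentation and further interferon-induced genes were read as lists. Of 7 negative regulators 0 passed within either line, with medians in A-498 of 0.03 for hairpin 1 and -0.14 for hairpin 3, and SOCS3, a feedback inhibitor of JAK kinases, was at 49.3 and 43.8 CPM in A-498 with hairpin 1 and hairpin 3, against 30.4 CPM in the A-498 control. Of 15 antigen presentation genes 0 passed, with medians of 0.46 and 0.37 in A-498 and of 0.27 and 0.26 in 786-O with hairpin 1 and hairpin 3. B2M, the light chain of class I molecules, was at 1827 and 2060.2 CPM in A-498 with hairpin 1 and hairpin 3, against 1689 CPM in the A-498 control. Of 28 other interferon-induced genes 0 passed, with medians in A-498 of 1.03 for hairpin 1 and 0.44 for hairpin 3. RNF213, a large ubiquitin ligase, was at 1246 and 999.7 CPM in A-498 with hairpin 1 and hairpin 3, against 632 CPM in the A-498 control. APOL1, an interferon-induced apolipoprotein, ran the other way, at 476 and 616 CPM in A-498 with hairpin 1 and hairpin 3, against 679 CPM in the A-498 control. Between the controls, IRF7, IFIH1, DHX58 and TLR3 were called higher in A-498 and IFNLR1 and GBP3 lower.

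Members with and without the promoter match had near-equal medians, which were not compared by a test. The median log2 fold change in A-498 was 1.46 over the 27 members with a match to the ISRE core and 1.56 over the 8 without, and in 786-O it was 0.21 with and 0.24 without. Position in the genome is shared too: 26 of 42 members lie next to another member, in 12 runs on the 15 chromosomes that hold members. A like share over all genes was not worked out. The runs include OAS1 with OAS3 and OAS2, IFIT2 with IFIT3, IFIT1 with IFIT5, and MX2 with MX1. They also include CMPK2 with RSAD2, HERC6 with HERC5, and SAMD9 with SAMD9L. Exons of 14 members overlap another gene in the GENCODE annotation, 4 of them on the same strand and 11 on the opposite strand. These are CMPK2 with RSAD2, DTX3L with PARP9, IFITM1 with IFITM2, and IFIT2, IFITM3, ISG15, MX1, OAS1, SP110, TRIM22 and XAF1 with other genes. Whether strand was used in counting is not stated in the labels or the files, so reads of overlapping genes cannot be told apart and these counts are uncertain.

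The authors' deposited table sets control over knockdown, so that a negative log2 fold change is higher in the knockdown, and 41 of 42 members had a negative value there. An adjusted p under 0.05 was listed for 2 of 42 members in the authors' deposited table, among 85 of 16046 genes with one. In the authors' deposited table these members were CXCL11 (log2 fold change -1.15, adjusted p = 0.0118) and XAF1 (log2 fold change -0.92, adjusted p = 0.0448), both above the control in all 4 hairpin libraries.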

How the data were processed

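Total RNA of 6 libraries was sequenced after TruSeq Stranded Total RNA preparation, per the labels' protocols. The authors deposited whole-number read counts per gene symbol, not normalized, over 32357 rows. The submitters' processing notes name the aligner STAR, DESeq2 and the builds hg19 and hs37d5 without saying which step used which or in what version. Which program counted reads, on which annotation and with which strand setting, is nowhere given in the sources used here. Per the file headers the authors further deposited, for each gene, a mean signal, a log2 fold change and its error, the Wald statistic as a score, and a raw and an adjusted p-value. The direction of the authors' deposited log2 fold change was worked out by setting its sign beside the counts. Number columns left unlisted were 0.

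Members were matched by symbol (42 of 42). The members and all lists were chosen with earlier results of these data known. The tests used edgeR 4.0.16 under R 4.3.3 (TMM, the expression filter over knockdown status, quasi-likelihood F tests, Benjamini-Hochberg adjustment over 20144 genes, calls at an adjusted p under 0.05). A model with 4 means (knockdown and control in each line) gave the comparisons within lines, their difference and the controls against each other. A model with line and construct gave the hairpin comparisons, and each had 2 residual degrees of freedom. The SE given with an edgeR log2 fold change is its absolute value divided by the square root of the F statistic, since this test returns none. Ratios of 1 library to 1 used log-CPM with a prior count of 2. Counting intervals are 95% and cover counting error only. Totals of 77534125 to 99147218 counts gave 75.0 to 99.7 counts at 1 CPM.

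Libraries with 1 number received 1 hairpin sequence in each line. The contrast of hairpin 3 with hairpin 1 had a Pearson r of 0.58 between the lines over 11027 genes, and 0.47 over 38 members with a mean of at least 5 CPM, so the hairpin was also fitted as a replicate block. Alternatives were DESeq2 size factors, no filter, DESeq2 1.42.0, limma-voom (limma 3.58.1), the block, and leaving out each library. The fits were also run on simulated data in which all genes had the same fixed spread. That spread was not taken from these libraries, so the runs do not show how the fits perform at the spread between hairpins seen here.

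Named with values in every library were members with a mean of at least 5 CPM that were among the 2 highest of their role or called in a comparison, and members whose directions differed within a line. CXCL10, with a mean under 5 CPM, was added as the partner of CXCL11, and the other members are given by levels or ratios in part of the libraries. From the lists of other genes, those called within a line and the 4 with the most CPM were eligible, and a few of these are named. IRF7, IFNB1, and the genes called between the controls or over both lines were named after their values were seen.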

Additional observations from a re-analysis of the deposited data

Results flagged for a closer look

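In 3 members both hairpin libraries of A-498 lay above the control of the line and both hairpin libraries of 786-O lay below theirs, and the values of each library stand in the report. In 786-O with hairpin 1 counting error alone covers a level equal to the control for 2 of them, with a ratio of 0.963 for USP18 (95% interval 0.889 to 1.04) and 0.959 for HERC6 (0.875 to 1.05). The log2 fold change in A-498 minus that in 786-O was 2.54 for USP18 (SE 0.752), 1.39 for HERC6 (SE 0.468) and 0.79 for TRIM22 (SE 0.518). None of the 3 differences passed adjustment over all genes tested in edgeR (adjusted p = 1.000 for each), where 0% of all genes did.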

How the results depend on the processing

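The counts of members called within 786-O and for the difference between the lines were 0 in every alternative that could be fitted. These alternatives also called 0% of all genes, except DESeq2 (0.093%) and the replicate block (0.00496%) within 786-O. The 4 median ratios of single libraries moved by less than the spread between hairpins. In A-498 the count, 0 by edgeR, was 10 with DESeq2 (0.121% of the genes it tested, in either direction). It was 8 with the hairpin as a replicate block (0.0546% of all genes). With DESeq2 size factors, no filter, limma-voom and each library left out it was 0, as was the share of all genes called. Between the controls the 13 members became 22 with DESeq2, 26 with the replicate block and 13 to 21 with a library left out. All 13 stayed called in the alternatives, apart from HERC5 under limma-voom. The shares of all genes called, in either direction, stand in parentheses for the hairpin comparisons below. For the fits with a library left out only some of these shares are given, in the report. For hairpin 1 the count of 0 (0.149%) became 24 with no filter (1.48%), 15 with DESeq2 (3.03%), 3 with limma-voom (0.184%) and 0 to 15 with a library left out. For hairpin 3 the count of 1 (6.71%) became 2 with DESeq2 size factors (6.86%), 10 with no filter (8.2%), 3 with DESeq2 (16.1%), 4 with limma-voom (8.12%) and 0 to 14 with a library left out. For hairpin 3 against hairpin 1 the count of 2 (9.48%) became 11 with no filter (9.63%), 9 with DESeq2 (18.3%), 5 with limma-voom (11.5%) and 1 to 12 with a library left out. The replicate block changed no other count, since in the model with line and construct it adds no term. The cause of these shifts was not tested, but a fit with a library left out has 1 residual degree of freedom, except that the 4-means model keeps 2 without a control. Leaving out the control of a line leaves no comparison within that line. With 1 library per line and construct, chance differences between cultures cannot be told apart from effects of the hairpins, and levels under 5 CPM, such as CXCL10 in 786-O, are limited by their counts.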
